A study of Mus musculus with 36 samples.

Results

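The receptors through which cultured mouse bone marrow progenitors respond to haematopoietic cytokines were followed with and without Taf1, the TFIID subunit deleted in this study. The set holds 9 of the 24411 genes in the expression tables, taken by symbol: Csf1r, Csf2ra, Csf2rb, Csf2rb2, Csf3r, Il3ra, Kit, Flt3 and Epor. The listed cytokines were SCF, IL-3, GM-CSF, M-CSF and G-CSF, each at 50 ng/ml, so 7 of the receptor genes encode chains for an added cytokine. FLT3 ligand and erythropoietin, which bind the products of Flt3 and Epor, were not among them. Haematopoietic stem and progenitor cells (HSPCs) from control mice (genotype WT in the labels) or Taf1 conditional knockout mice were sampled at day 0 and after 3 days with SCF and IL-3. They were then divided between a granulocyte course, in which G-CSF joined SCF and IL-3 until day 5 and was left alone until day 7, and a macrophage course, in which GM-CSF with M-CSF was followed by M-CSF alone over the same days. All cultures were in IMDM with 20% horse serum. The 12 groups of genotype, day and course held 3 RNA-seq libraries each, 36 in all. The labels do not say how or in which cells the deletion was induced, which part of the gene was removed, or whether the 3 libraries of a group were separate mice, so a p-value measures only the spread between these libraries, which may be technical.

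Cytokine receptors of the kind studied here belong to 2 families. Kit, Flt3 and Csf1r encode receptor tyrosine kinases, for SCF, FLT3 ligand and M-CSF (and IL-34). Csf3r and Epor encode chains that pair with themselves on binding G-CSF or erythropoietin and signal through Janus kinases and STAT proteins. The IL-3 and GM-CSF receptors each have a private alpha chain, from Il3ra or Csf2ra, that binds the ligand and a beta chain that signals. In the mouse, Csf2rb encodes the common beta chain shared by the IL-3, GM-CSF and IL-5 receptors, and Csf2rb2 a close relative that serves IL-3 alone. In bone marrow, Kit and Flt3 mark early progenitors, Epor is best known from red cell precursors, Csf1r from monocytes and macrophages, and Csf3r from neutrophils and their precursors. These roles are background and were not measured here.

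The 5 receptor genes whose start regions are printed are those with a window in the RefSeq promoter table that passed as higher in the knockout at day 7 of the granulocyte course, described further on. Each line gives the 250 bases before the annotated start, 5′ to 3′ on the gene's strand, build GRCm38.p6; the windows searched for motifs run on to 50 bases after it. Capitals mark matches on either strand to GAGGAA, the core letters of sites for the factor PU.1, or to AGATAA, which belongs with the GATA factors.
Csf3r, chr4:126024409-126024658, plus strand: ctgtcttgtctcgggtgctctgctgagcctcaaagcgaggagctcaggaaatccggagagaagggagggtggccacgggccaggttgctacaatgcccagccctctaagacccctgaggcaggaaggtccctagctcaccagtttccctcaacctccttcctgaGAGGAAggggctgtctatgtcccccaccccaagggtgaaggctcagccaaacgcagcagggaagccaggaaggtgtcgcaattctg
Csf2rb2, chr15:78305722-78305971, minus strand: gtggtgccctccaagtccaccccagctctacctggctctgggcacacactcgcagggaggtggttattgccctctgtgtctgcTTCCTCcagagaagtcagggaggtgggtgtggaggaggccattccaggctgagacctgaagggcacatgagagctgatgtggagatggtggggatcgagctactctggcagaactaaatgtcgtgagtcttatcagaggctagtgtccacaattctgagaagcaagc
Kit, chr5:75574737-75574986, plus strand: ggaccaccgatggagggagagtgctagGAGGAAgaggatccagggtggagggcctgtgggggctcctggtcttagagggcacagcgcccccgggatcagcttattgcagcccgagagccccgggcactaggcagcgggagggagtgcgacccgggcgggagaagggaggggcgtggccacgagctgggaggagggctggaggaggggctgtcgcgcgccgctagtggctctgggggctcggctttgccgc
Flt3, chr5:147400490-147400739, minus strand: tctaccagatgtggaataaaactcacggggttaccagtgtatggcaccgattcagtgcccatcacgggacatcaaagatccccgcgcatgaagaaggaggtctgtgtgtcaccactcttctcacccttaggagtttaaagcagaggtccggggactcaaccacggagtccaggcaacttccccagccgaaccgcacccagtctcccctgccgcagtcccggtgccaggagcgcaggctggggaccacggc
Epor, chr9:21963577-21963826, minus strand: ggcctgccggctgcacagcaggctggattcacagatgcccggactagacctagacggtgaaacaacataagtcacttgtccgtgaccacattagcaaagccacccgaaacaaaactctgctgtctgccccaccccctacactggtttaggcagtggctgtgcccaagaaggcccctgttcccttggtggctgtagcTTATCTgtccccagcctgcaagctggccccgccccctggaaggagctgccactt

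The table held windows for 7 of the 9 receptors, 2 of them for Kit that differ by a few bases. GAGGAA lay in the windows of 4 (Csf3r, 86 bases before the start; Kit, 223 before in the window printed; Csf2rb2, on the other strand, 167 before and 29 after; Csf2ra, 14 and 8 before) and in 28.3% of all 32851 windows. AGATAA lay in 1, that of Epor, 54 bases before the start on the other strand, and in 11.2% of all windows. The TATA box letters TATAAA lay in none of the 7 and in 13.6% of all windows. No match to one of these motifs overlapped a match to another. A match is a description of the letters, and binding was not measured.

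Csf2rb and Csf2rb2 are neighbours on chromosome 15, 20030 bases apart in the GENCODE M21 annotation of mm10. Csf2rb (plus strand) spans 78325752 to 78353847, and Csf2rb2 (minus strand) 78282507 to 78305721. Their longest annotated coding sequences, 2688 and 2634 bases, were identical at 95.2% of the 2628 aligned bases. Of all stretches of 50 bases in the Csf2rb2 coding sequence, 26.6% also stood in that of Csf2rb. The longest such stretch is printed to show why reads from the 2 genes can be hard to assign; it spans coding bases 2083 to 2324 of Csf2rb, 242 bases, and is the same in both genes.
Csf2rb and Csf2rb2, shared coding stretch: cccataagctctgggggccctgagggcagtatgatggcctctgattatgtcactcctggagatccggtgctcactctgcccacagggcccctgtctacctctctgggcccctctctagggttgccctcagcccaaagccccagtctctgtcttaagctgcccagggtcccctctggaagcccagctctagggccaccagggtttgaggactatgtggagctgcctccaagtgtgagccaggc
How reads from such stretches were divided was set by the authors' quantification, so the values of the pair are uncertain relative to each other. Csf2rb2 TPM ranged from 2.94% to 4.1% of Csf2rb TPM in control libraries of day 0, 8.06% to 9.65% at day 3 and 10.2% to 24.3% in knockout libraries of the day 5 granulocyte course, so it was not a fixed fraction.

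Taf1, the deleted gene, was at 14.1 ± 0.491 TPM (a length-normalised share of the library's transcripts; SD, n = 3) in controls and 8.85 ± 0.303 in knockouts at day 0, and at 10.7 ± 0.939 and 9.34 ± 0.849 at day 3, where the libraries overlapped. It was at 13.1 ± 0.622 and 6.11 ± 0.15 at day 5 and 13.2 ± 0.35 and 7.19 ± 0.407 at day 7 of the macrophage course. In the granulocyte course it was at 14.2 ± 1.87 and 7.36 ± 0.153, then 11.2 ± 0.92 and 7.77 ± 1.03. The whole-gene level was thus lower without reaching 0, and a gene-level value does not show which part was deleted. Replicate libraries correlated at 0.973 to 0.997 over genes, and 10289 to 11226 genes reached 1 TPM in a library. The 14 neutrophil markers in the tables summed to 12831 to 22322 TPM at day 0 in controls and up to 249679 in a knockout library at day 5. This list alone thus took a large share of the fixed total, and its part in the values of other genes was not tested. None of the 12 stem and progenitor markers was at 0 in all libraries of any group, day 0 or later. In controls the neutrophil markers summed to 78958 to 94442 TPM at day 3. At day 5 they summed to 59676 to 166155 TPM in the macrophage course and 64719 to 163774 in the granulocyte course. Defining lymphoid genes, Pax5 and Rag1 among them, were at 0 in most groups, and Vsig4 and Timd4 of the macrophage list were at 0 in most. In bulk RNA, fewer cells of a type and less RNA per cell cannot be told apart, which holds for every difference that follows. Scaling by median of ratios moved the median difference over all genes by more than 0.1 on the log2 scale in 11 of the 20 comparisons, and there the scaled value is given for each receptor that passed.

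**Figure D1:**
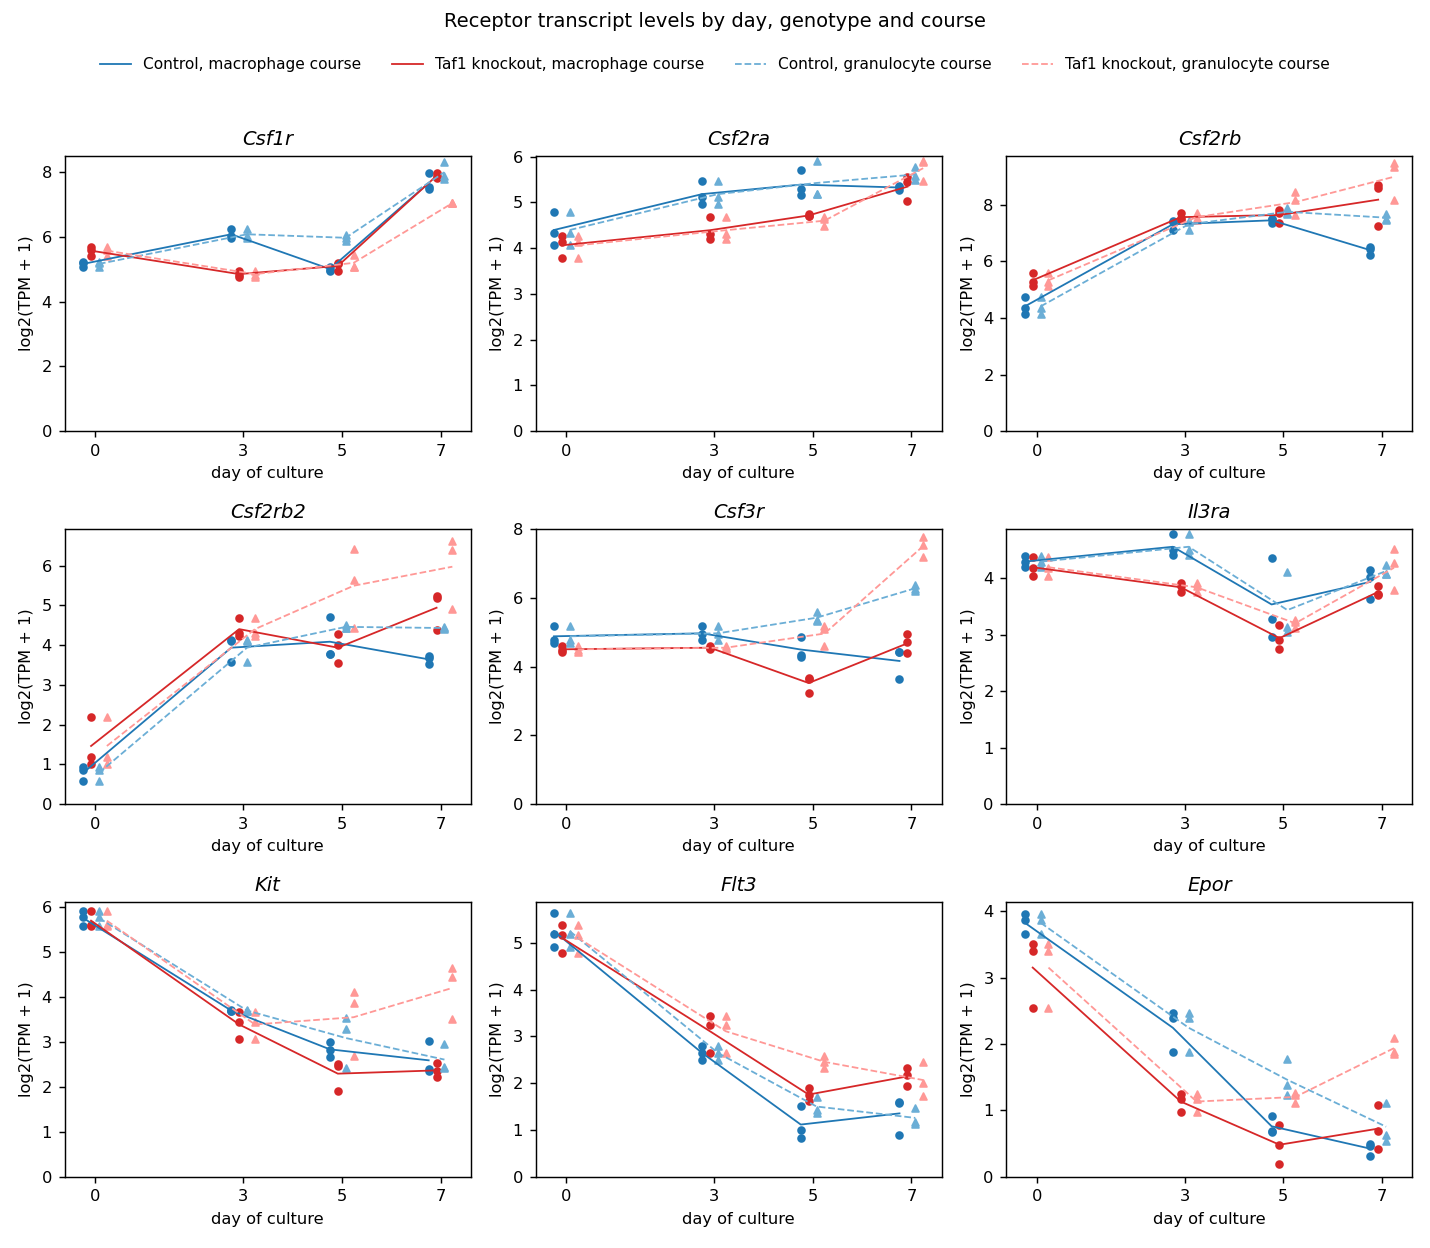
log2(TPM + 1) of each receptor (vertical axis) by day of culture (horizontal axis) for controls (blue) and knockouts (red) in the macrophage course (circles, full lines) and granulocyte course (triangles, dashed lines). Points are libraries and lines join the means of 3; day 0 and day 3 libraries are shared by both courses and drawn for each. In controls Kit, Flt3 and Epor fell and Csf2rb and Csf2rb2 rose from day 0 to day 3, and Csf1r had its highest mean of either genotype at day 7.

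Within 3 days of SCF and IL-3, control cells lost most of their Kit, Flt3 and Epor transcripts and gained both beta chains. Kit went from 53.4 ± 6.55 to 12 ± 0.128 TPM (SD, n = 3). Flt3 went from 37.8 ± 10.0 to 5.28 ± 0.675 and Epor from 13.2 ± 1.46 to 3.81 ± 0.98. Csf2rb rose from 20.5 ± 4.47 to 159 ± 19 and Csf2rb2 from 0.73 ± 0.214 to 14.5 ± 3.05. In all, 4 receptors passed as higher and 3 as lower (limma, adjusted p under 0.05), where 73% of all genes passed, 3983 higher and 4739 lower (4808 higher and 4211 lower after scaling, with the receptors again 4 and 3). Over the same days some marker sums fell and others rose. Stem and progenitor markers fell (407 to 487 TPM at day 0, 158 to 220 at day 3). Erythroid (935 to 1273, then 145 to 247) and lymphoid markers (381 to 596, then 80.1 to 134) fell too. Sums of 16 macrophage markers (24.2 to 27.7, then 899 to 1161) and 13 mast cell and basophil markers (287 to 835, then 1546 to 2114) rose. So did the neutrophil (12831 to 22322, then 78958 to 94442), megakaryocyte, eosinophil and dendritic cell sums. The part of these lists in the receptor changes was not tested.

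The control libraries of day 0 held Kit, the SCF receptor, at 59.6, 53.9 and 46.6 TPM, and those of day 3 at 11.9, 12 and 12.1. The groups lay far apart and the day 3 libraries within 1 TPM of each other (log2 difference -2.06 ± 0.18 (SE), adjusted p = 3.53e-09, -1.92 after scaling). Flt3 was at 35.4, 48.8 and 29.2 and then 4.62, 5.26 and 5.97 TPM (log2 difference -2.60 ± 0.23 (SE), adjusted p = 3.58e-09, -2.47 after scaling). Epor was at 11.7, 13.5 and 14.5 and then 2.69, 4.51 and 4.23 TPM (log2 difference -1.58 ± 0.22 (SE), adjusted p = 1.38e-06, -1.46 after scaling). All 3 were lower in every library of day 3 than in any of day 0. Csf2rb stood at 25.4, 19.5 and 16.6 TPM at day 0 and 137, 167 and 172 at day 3 (log2 difference 2.90 ± 0.25 (SE), adjusted p = 2.28e-09, 3.05 after scaling). Csf2rb2, the IL-3-specific beta chain, was under 1 TPM in each control library of day 0 (0.9, 0.8 and 0.49) and at 11, 16.1 and 16.5 TPM at day 3 (log2 difference 3.15 ± 0.29 (SE), adjusted p = 6.67e-09, 3.26 after scaling). The beta chains had the largest rises of the 9 receptors in this comparison. Among the ligand-binding partners, Csf2ra rose (log2 difference 0.78 ± 0.19 (SE), adjusted p = 7.56e-04, 0.93 after scaling) and Csf1r rose (log2 difference 0.92 ± 0.11 (SE), adjusted p = 2.65e-07, 1.06 after scaling), while Il3ra (0.26, adjusted p = 0.303) and Csf3r (0.09, adjusted p = 0.707) did not pass.

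By length-normalised level (TPM), the order in control cells at day 0 was Kit, Flt3, Csf1r, Csf3r, Csf2ra, Csf2rb, Il3ra, Epor and Csf2rb2. Each neighbour in that order overlapped the next in its libraries down to Il3ra, and Epor and Csf2rb2 lay below without overlap. By day 7 the order in the control granulocyte course was Csf1r, Csf2rb, Csf3r, Csf2ra, Csf2rb2, Il3ra, Kit, Flt3 and Epor, with no overlap between neighbours. In the control macrophage course at day 7 it was Csf1r, Csf2rb, Csf2ra, Csf3r, Il3ra, Csf2rb2, Kit, Flt3 and Epor, with overlap between Csf3r and Il3ra and between Il3ra and Csf2rb2. Csf1r was therefore the most abundant of these transcripts in the controls of either course at day 7, and Epor the least.

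Control cells changed their receptors differently by stage in the macrophage course. From day 3 to day 5, with GM-CSF and M-CSF, 5 receptors passed as lower and none as higher, beside 50.3% of all genes. Csf1r, the M-CSF receptor, was at 74.5, 62 and 64.2 TPM at day 3 and 30.0, 30.6 and 32.9 at day 5 (log2 difference -1.07 ± 0.11 (SE), adjusted p = 1.71e-07). Every day 5 library was thus below every day 3 library. Il3ra (-1.02), Kit (-0.86), Flt3 (-1.53) and Epor (-1.48) were the others, with adjusted p of 9.06e-04, 6.19e-04, 2.00e-05 and 1.20e-05. After scaling Csf3r passed as lower too (-0.51, adjusted p = 0.0428). Il3ra in the first control library was at 19.5 TPM at day 5 and in the others at 6.83 and 8.74. From day 5 to day 7, with M-CSF alone, 1 receptor passed as higher and 1 as lower, beside 39.1% of all genes. Csf1r reached 178, 186 and 249 TPM at day 7 (log2 difference 2.66 ± 0.11 (SE), adjusted p = 3.57e-13). Csf2rb, whose chain serves the GM-CSF that had been withdrawn, went from 179, 162 and 181 to 90.7, 85.1 and 74.7 TPM (log2 difference -1.05 ± 0.25 (SE), adjusted p = 0.00213).

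In the control granulocyte course Csf3r, the G-CSF receptor, rose at each step. Its libraries read 35.4, 26.3 and 30.1 TPM at day 3, 47, 39.1 and 40.4 at day 5 and 73, 76.1 and 82.2 at day 7. The groups did not overlap at either step. The change from day 3 to 5 was a log2 difference 0.45 ± 0.16 (SE), adjusted p = 0.0251. This call was lost without the second (0.35, adjusted p = 0.119) or the third control library of day 3 (0.45, adjusted p = 0.0584) or the first of day 5 (0.38, adjusted p = 0.0811). Over days 5 to 7 it was a log2 difference 0.86 ± 0.16 (SE), adjusted p = 3.18e-04, 1.06 after scaling. Csf1r also rose at the later step, from 65.4, 62.1 and 58.2 to 219.7, 236 and 319.7 TPM (log2 difference 2.03 ± 0.12 (SE), adjusted p = 2.06e-10, 2.23 after scaling), although M-CSF was not added to this course. Il3ra fell from 26.4, 21.5 and 20.2 to 16.4, 7.83 and 7.28 TPM (log2 difference -1.12 ± 0.20 (SE), adjusted p = 1.83e-04), with the first library above the others. At day 7 Il3ra was at 15.9, 15.9 and 17.8 TPM (log2 difference 0.69 ± 0.20 (SE), adjusted p = 0.0109, 0.89 after scaling); that call was lost without the second (0.55, adjusted p = 0.0603) or the third control library of day 5 (0.50, adjusted p = 0.071).
Flt3 (-1.15) and Epor (-0.78) fell from day 3 to 5 and Epor again from day 5 to 7 (log2 difference -0.71 ± 0.21 (SE), adjusted p = 0.0122, -0.62 after scaling). The later call was lost without the first library of day 5 (-0.55, adjusted p = 0.067) or the first (-0.60, adjusted p = 0.0624) or second of day 7 (-0.64, adjusted p = 0.0505). In all, 1 receptor passed as higher and 3 as lower from day 3 to 5, where 44.3% of all genes passed. From day 5 to 7 it was 3 and 1, beside 38% of all genes, a set that split 1193 higher and 3328 lower unscaled and 2761 higher and 2168 lower after scaling.

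Between the control courses, the receptors that differed were lower in the macrophage course. At day 5, 2 passed, beside 3.44% of all genes. Csf1r was at 30.0, 30.6 and 32.9 TPM in the macrophage and 65.4, 62.1 and 58.2 in the granulocyte course (log2 difference -0.97 ± 0.11 (SE), adjusted p = 8.11e-04), lower in each of the 3 libraries that had M-CSF. Csf3r was at 28.4, 18.6 and 19.1 and 47, 39.1 and 40.4 TPM (log2 difference -0.93 ± 0.20 (SE), adjusted p = 0.0276); this call was lost with any 1 of 5 of the 6 control libraries left out, with log2 differences from -0.98 to -0.82, the exception being the first macrophage library. After scaling Epor passed as lower too (-0.67, adjusted p = 0.0382). At day 7, 2 receptors passed beside 46.7% of all genes, which split 4095 higher and 1162 lower unscaled and 2133 higher and 2277 lower scaled. Csf3r was at 20.3, 20.6 and 11.6 and 73, 76.1 and 82.2 TPM (log2 difference -2.12 ± 0.22 (SE), adjusted p = 8.09e-05, -2.35 after scaling). Csf2rb was at 90.7, 85.1 and 74.7 and 174, 181 and 202 TPM (log2 difference -1.15 ± 0.38 (SE), adjusted p = 0.0286, -1.38 after scaling); without the first macrophage library the call held, and without any 1 of the other 5 it was lost, with log2 differences from -1.19 to -1.07. After scaling, Csf1r (-0.57), Csf2ra (-0.51) and Csf2rb2 (-1.01) passed as lower too, with adjusted p of 0.00208, 0.00464 and 0.0376. The neutrophil list summed to 37408 to 75473 TPM in the macrophage and 122792 to 172668 in the granulocyte course at day 7, and the macrophage list to 4723 to 7706 and 2694 to 4745; their part in the receptor differences was not tested.

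**Figure D2:**
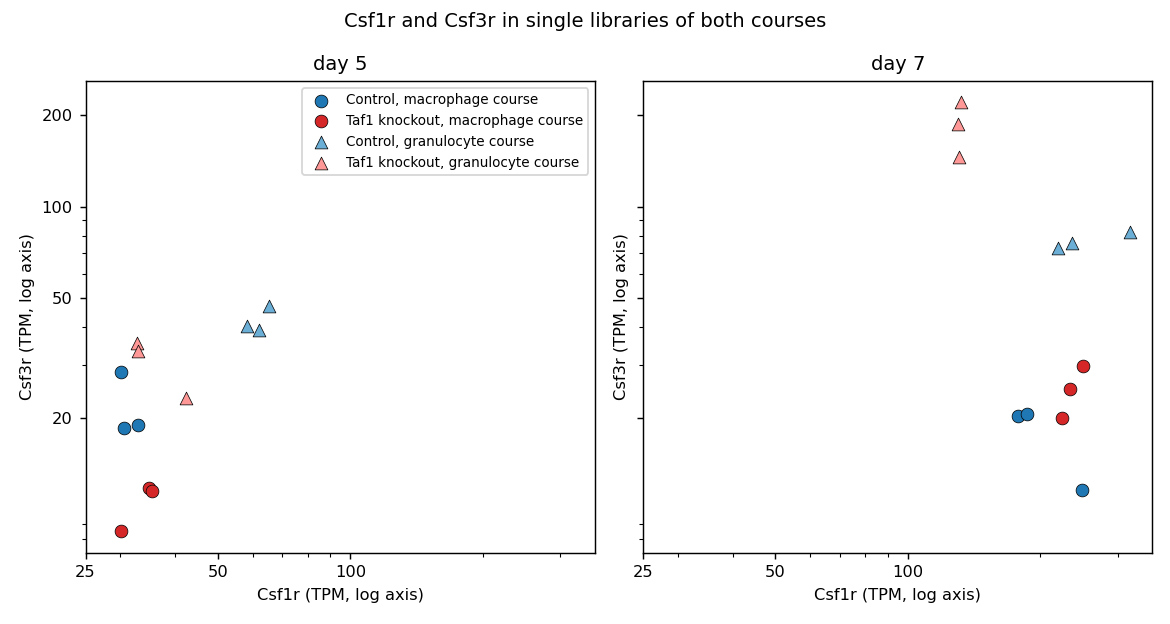
Csf1r (horizontal, TPM, log axis) against Csf3r (vertical, TPM, log axis) in each library of day 5 and day 7, coloured by genotype, circles for the macrophage and triangles for the granulocyte course. At day 7 the 3 knockout granulocyte libraries lie near 131 TPM Csf1r and at 145 to 220.46 TPM Csf3r, with less Csf1r and more Csf3r than any control granulocyte library.

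Before culture, at day 0, 3 receptors differed between the genotypes. Csf2rb was higher, at 25.4, 19.5 and 16.6 TPM in controls and 33.7, 47.4 and 37.8 in knockouts, and Csf1r was higher, at 35.9, 32.7 and 36.2 and 41.9, 50.7 and 47.9. Epor was lower, at 11.7, 13.5 and 14.5 and 9.55, 4.83 and 10.4 TPM. None of the 3 overlapped between genotypes, but neither did Csf3r and Csf2rb2, which did not pass. That made 5 of the 9 receptors without overlap, a count not made over all genes. Csf2rb had a log2 difference 0.92 ± 0.25 (SE), adjusted p = 0.0113. Csf1r had a log2 difference 0.41 ± 0.11 (SE), adjusted p = 0.0107, and Epor a log2 difference -0.68 ± 0.22 (SE), adjusted p = 0.0275. With 2 receptors higher and 1 lower, the share is near that of all genes, 23.3% of which passed (1568 higher and 1222 lower, or 1159 higher and 1891 lower after scaling). All 3 calls were lost without the second knockout library, when the values were 0.79, adjusted p = 0.0569 for Csf2rb, 0.35, adjusted p = 0.0538 for Csf1r and -0.37, adjusted p = 0.192 for Epor. Csf2rb was also lost without the third control library (0.79, adjusted p = 0.0638) and Epor without the second (-0.66, adjusted p = 0.0713) or the third (-0.61, adjusted p = 0.102). Csf1r was lost after scaling (0.31, adjusted p = 0.0863). Beside Epor, 6 of 12 tested erythroid markers were lower and none higher, their sum being 935 to 1273 TPM in controls and 582 to 1323 in knockouts with Hbb-bs at 0 in all knockout libraries. Neutrophil markers stood at 3 of 14 higher and 0 lower (3 and 0 after scaling), with sums of 12831 to 22322 and 27797 to 47935 TPM. Lymphoid markers stood at 0 of 3 higher and 2 lower (0 and 2 after scaling), with sums of 381 to 596 and 169.7 to 202 TPM, and dendritic cell markers at 0 of 11 higher and 6 lower (0 and 6 after scaling), with sums of 207 to 485 and 122 to 189.6. Macrophage markers, beside Csf1r, stood at 0 of 13 higher and 1 lower (0 and 1 after scaling), with sums of 24.2 to 27.7 and 22 to 27.5 TPM. The part of these lists was not tested. Kit (-0.06), Flt3 (-0.14), Il3ra (-0.10), Csf2ra (-0.33), Csf3r (-0.38) and Csf2rb2 (0.68) did not pass.

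After 3 days in SCF and IL-3 the knockout cells held less of 4 receptors, and of 6 after scaling, and more of none. Csf1r was at 74.5, 62 and 64.2 TPM in controls and 30.1, 26.3 and 27.3 in knockouts, with no library near the other group (log2 difference -1.23 ± 0.11 (SE), adjusted p = 3.63e-08). Csf2ra, the GM-CSF alpha chain, was at 43.2, 33.9 and 30.0 and 24.6, 17.4 and 18.7 TPM (log2 difference -0.79 ± 0.19 (SE), adjusted p = 0.00132). Il3ra, the IL-3 alpha chain, was at 26.4, 21.5 and 20.2 and 14.1, 13.5 and 12.5 TPM (log2 difference -0.72 ± 0.23 (SE), adjusted p = 0.0115); without the first control library it was -0.61, adjusted p = 0.0578. These alpha chains were lower in every knockout library than in any control. Epor was at 2.69, 4.51 and 4.23 and 1.38, 0.97 and 1.25 TPM (log2 difference -1.11 ± 0.22 (SE), adjusted p = 2.23e-04). By contrast the beta chains did not pass, Csf2rb at 159 ± 19 and 189 ± 18.4 TPM (0.25, adjusted p = 0.414) and Csf2rb2 at 14.5 ± 3.05 and 20.4 ± 3.71 (0.47, adjusted p = 0.189). Both still read higher in every knockout library than in any control. Csf2rb ranged from 137 to 172 and 174 to 210 TPM, and Csf2rb2 from 11 to 16.5 and 17.65 to 24.6. In all, 8 of the 9 receptors did not overlap between genotypes at day 3, a count not made over all genes. Flt3 (0.46, adjusted p = 0.0997) passed only when the first knockout library was left out (0.69, adjusted p = 0.0215). Csf3r was at 35.4, 26.3 and 30.1 TPM in controls and 23.1, 22.4 and 21.9 in knockouts and Kit at 11.9, 12 and 12.1 and 7.31, 11.8 and 9.86, without overlap in either. They did not pass unscaled, with -0.42 (adjusted p = 0.084) for Csf3r and -0.31 (adjusted p = 0.163) for Kit. After scaling both passed as lower, with -0.52 (adjusted p = 0.0358) and -0.41 (adjusted p = 0.043). Of all genes, 53.2% passed at day 3, 3167 higher and 3188 lower (2809 higher and 4280 lower after scaling). There was a median log2 difference of -0.42 over the 9 receptors and -0.01 over all genes tested.
Macrophage markers were lower with Csf1r at day 3, 11 of 13 tested and none higher, their sum being 899 to 1161 TPM in controls and 229 to 362 in knockouts, with Vsig4 at 0 in both genotypes and Timd4 at 0 in the knockouts. Erythroid markers stood at 2 of 12 higher and 7 lower, with sums of 145 to 247 and 241 to 347 TPM and Slc4a1 at 0 in both. All 11 megakaryocyte markers were lower, with sums of 1516 to 2575 and 320.0 to 671 TPM. Eosinophil markers stood at 0 of 8 higher and 7 lower, with sums of 2725 to 3774 and 826 to 996 TPM. Other sums were higher in the knockouts. Neutrophil markers, beside the lower Csf3r, summed to 78958 to 94442 TPM in controls and 133905 to 147875 in knockouts. Stem and progenitor markers summed to 158 to 220 and 221 to 273 TPM. The part of these markers in the receptor differences was not tested. The change from day 0 to day 3 itself differed between genotypes for 1 receptor, Csf1r (log2 difference of changes -1.64, adjusted p = 6.71e-07), which went from a mean of 34.9 to 66.9 TPM in controls and from 46.8 to 27.9 in knockouts; 32.3% of all genes passed that test.

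**Figure D3:**
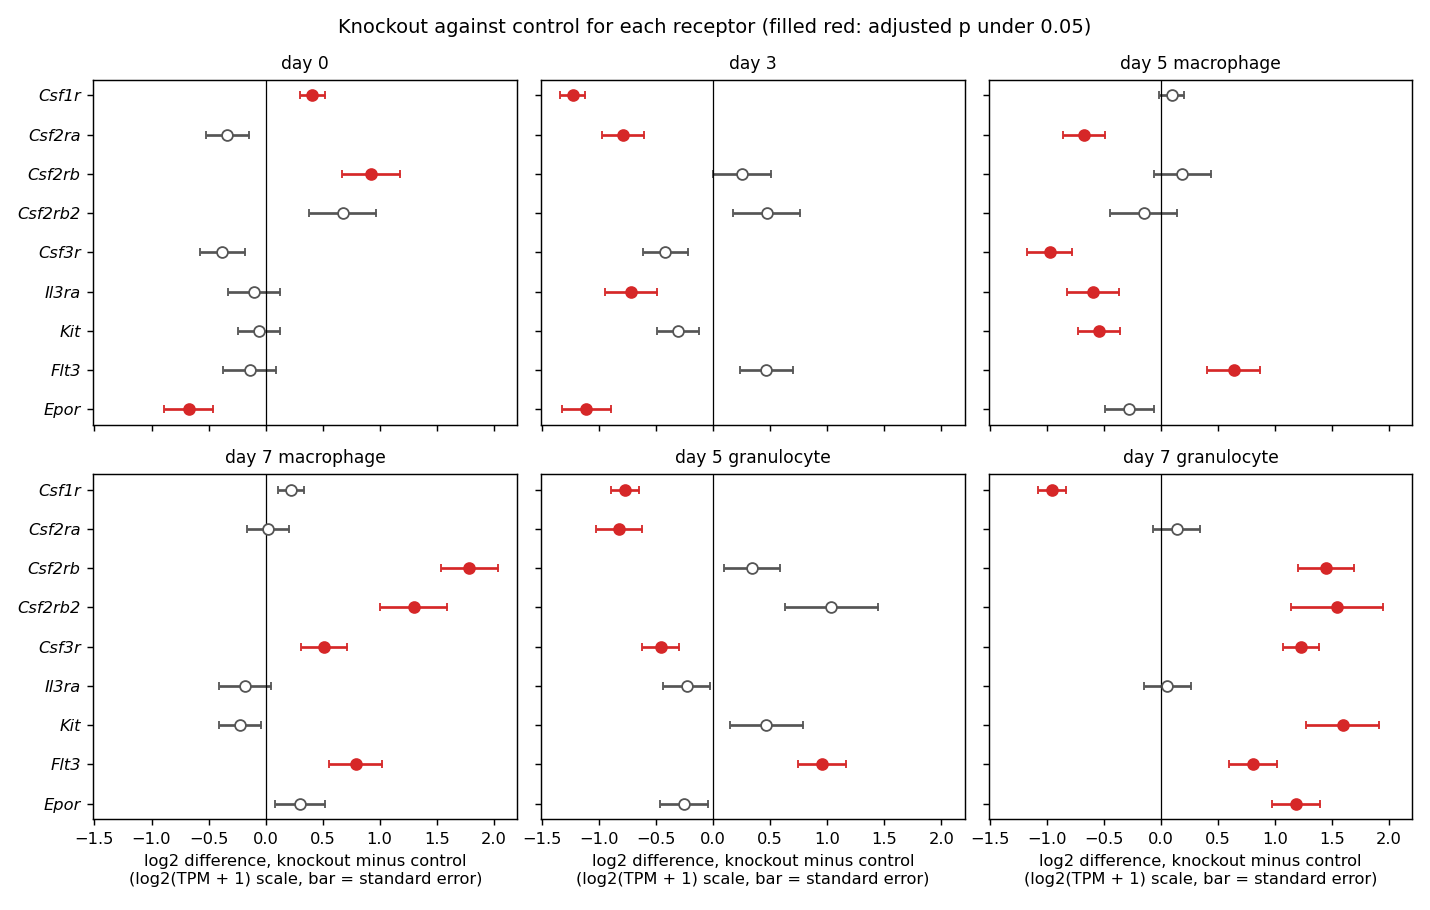
Knockout minus control difference of each receptor on the log2(TPM + 1) scale (horizontal axis) at the 6 stages, with bars of 1 standard error. Filled red points passed at an adjusted p under 0.05. Csf1r lies below 0 at day 3 and at both granulocyte stages, and 6 receptors lie above 0 with a call at day 7 of the granulocyte course.

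At day 5 of the macrophage course Csf3r and Csf2ra were lower without Taf1. Csf3r was at 28.4, 18.6 and 19.1 TPM in controls and 8.48, 11.8 and 11.5 in knockouts, with no overlap (log2 difference -0.98 ± 0.20 (SE), adjusted p = 6.85e-04, -0.76 after scaling), and it passed in every alternative run. Csf2ra was at 51.3, 35 and 38.3 and 25.8, 25 and 25.1 TPM (log2 difference -0.67 ± 0.19 (SE), adjusted p = 0.00635, -0.45 after scaling); after scaling it no longer passed (adjusted p = 0.0806). The other calls rested on few libraries. Il3ra was at 19.5, 6.83 and 8.74 and 7.98, 6.49 and 5.72 TPM, groups that overlap (log2 difference -0.60 ± 0.23 (SE), adjusted p = 0.0388, -0.39 after scaling), and without the first control library the value was -0.19, adjusted p = 0.35. It was lost too without the second (-0.58, adjusted p = 0.0898) or the third knockout library (-0.50, adjusted p = 0.132). Kit was at 6.12, 5.37 and 7.01 and 2.74, 4.51 and 4.73 TPM (log2 difference -0.54 ± 0.18 (SE), adjusted p = 0.0224, -0.35 after scaling), lost without the third control (-0.46, adjusted p = 0.088) or first knockout library (-0.34, adjusted p = 0.149). At these levels of Kit a few TPM separate the genotypes.
Flt3 was higher at a low level, 1.86, 0.77 and 1.01 and 2.06, 2.75 and 2.36 TPM (log2 difference 0.64 ± 0.23 (SE), adjusted p = 0.0313, 0.82 after scaling). That call was lost without the second (0.49, adjusted p = 0.123) or the third control (0.59, adjusted p = 0.0882) or the second (0.57, adjusted p = 0.102) or the third knockout library (0.64, adjusted p = 0.0665). In all, 1 receptor passed as higher and 4 as lower, beside 43% of all genes, 611 higher and 4532 lower. After scaling, all genes split 2034 higher and 2548 lower and the receptors 1 higher and 1 lower. Csf1r did not pass (30.0, 30.6 and 32.9 and 30.0, 34.9 and 35.5 TPM, log2 difference 0.10 ± 0.11 (SE), adjusted p = 0.5, 0.32 after scaling). Of 13 macrophage markers, 13 were lower, with sums of 2001 to 2469 and 877 to 1068 TPM and Timd4 at 0 in both genotypes. Neutrophil markers, beside Csf3r, stood at 3 of 14 higher and 4 lower, with sums of 59676 to 166155 and 190429 to 249679 TPM; their part was not tested.

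At day 7 of the macrophage course, with M-CSF alone, the knockout cells held several times more of the beta chains. Csf2rb was at 90.7, 85.1 and 74.7 TPM in controls and 152, 382 and 417 in knockouts (log2 difference 1.78 ± 0.25 (SE), adjusted p = 1.95e-05, 1.62 after scaling). Csf2rb2 was at 12.3, 11.7 and 10.5 and 19.9, 35.7 and 37 TPM (log2 difference 1.30 ± 0.29 (SE), adjusted p = 0.00164, 1.14 after scaling). In both genes the first knockout library lay between the controls and the other knockout libraries. Leaving out both of those others, an alternative chosen after seeing the data, gave 0.86, adjusted p = 0.0149 for Csf2rb and 0.74, adjusted p = 0.256 for Csf2rb2. Flt3 was at 1.99, 2.02 and 0.85 and 2.85, 4 and 3.49 TPM (log2 difference 0.79 ± 0.23 (SE), adjusted p = 0.0105, 0.66 after scaling), lost without the third control (0.56, adjusted p = 0.0652) or second knockout library (0.70, adjusted p = 0.0507). Csf3r was at 20.3, 20.6 and 11.6 and 20.0, 29.7 and 25.1 TPM, groups that overlap (log2 difference 0.51 ± 0.20 (SE), adjusted p = 0.0468, 0.35 after scaling). That call was lost without the third control (0.26, adjusted p = 0.283) or the second (0.38, adjusted p = 0.2) or the third knockout library (0.50, adjusted p = 0.109), and after scaling (adjusted p = 0.184).
Csf1r itself did not pass, at 178, 186 and 249 and 225, 249.7 and 234 TPM (log2 difference 0.22 ± 0.11 (SE), adjusted p = 0.115, 0.06 after scaling); without the third control library it passed as higher (0.37, adjusted p = 0.00551). Kit (-0.22), Il3ra (-0.18), Csf2ra (0.02) and Epor (0.30) did not pass either. With 4 receptors higher and none lower, the count stands beside 39.9% of all genes, 3274 higher and 1495 lower (2175 higher and 2618 lower after scaling). Mast cell and basophil markers stood at 6 of 12 higher and 0 lower, with sums of 81 to 531 and 327 to 704 TPM and Tpsab1 at 0 in both genotypes. Stem and progenitor markers stood at 5 of 12 higher and 0 lower, with sums of 202 to 249 and 276 to 283 TPM, and dendritic cell markers at 6 of 11 higher and 0 lower, with sums of 212 to 336 and 401 to 585. Megakaryocyte markers stood at 2 of 11 higher and 1 lower (2 and 1 after scaling), with sums of 429.9 to 455 and 1835 to 2272 TPM, and erythroid markers at 1 of 12 higher and 0 lower (0 and 0 after scaling), with sums of 52.8 to 89.7 and 120.2 to 152. Neutrophil markers, beside Csf3r, stood at 2 of 14 higher and 6 lower (2 and 6 after scaling), with sums of 37408 to 75473 and 28826 to 43475 TPM. Macrophage markers, beside Csf1r, summed to 4723 to 7706 TPM in controls and 6565 to 9189 in knockouts. These ranges overlap, and Timd4 was at 0 in both genotypes. The part of these lists was not tested.

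**Figure D4:**
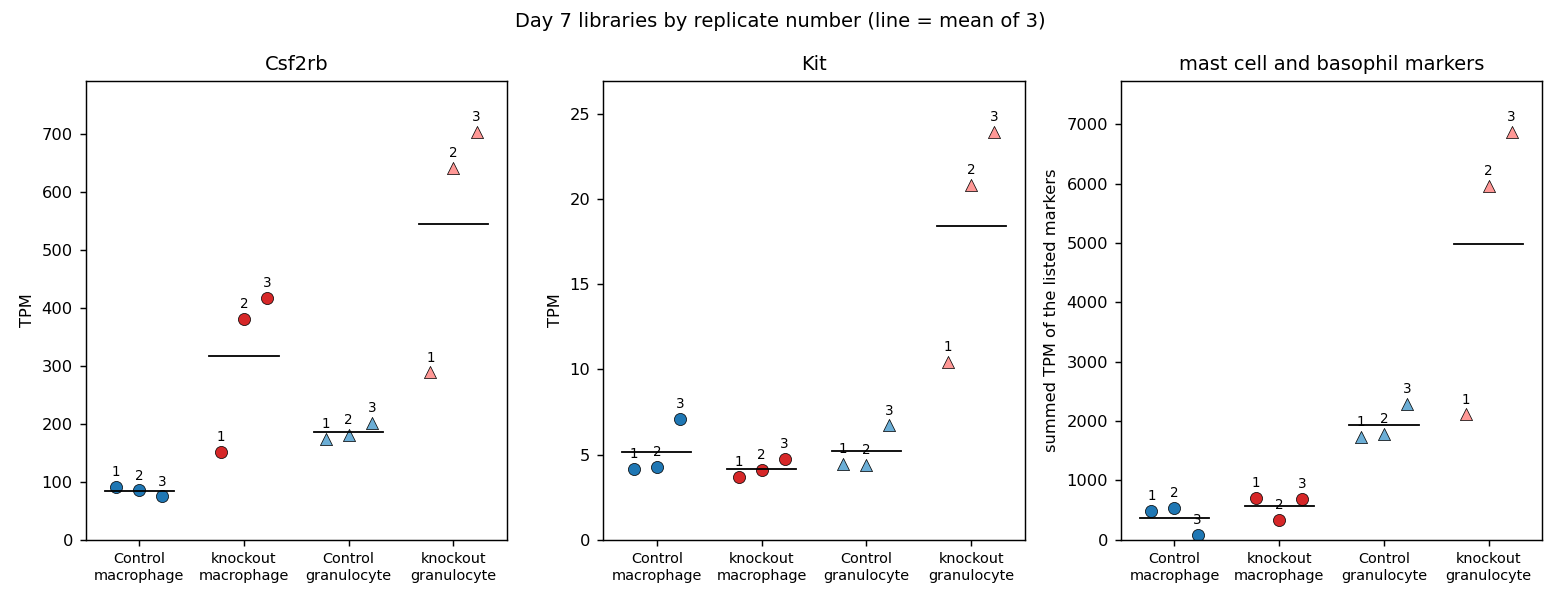
Csf2rb and Kit (TPM) and the summed TPM of 13 mast cell and basophil markers (vertical axes) in the 12 libraries of day 7, by group, with the replicate number above each point and the mean of 3 as a line. Knockout granulocyte libraries 2 and 3 reach 642.55 and 704.04 TPM Csf2rb, 20.8 and 23.9 TPM Kit and the larger marker sums, while library 1 stands at 289, 10.4 and 2112.

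At day 5 of the granulocyte course the knockout cells held less Csf1r, Csf2ra and Csf3r and more Flt3. Csf1r was at 65.4, 62.1 and 58.2 TPM in controls and 42.4, 32.8 and 32.8 in knockouts (log2 difference -0.77 ± 0.12 (SE), adjusted p = 6.02e-05). Csf2ra was at 59.2, 35.5 and 35.2 and 24.1, 21.3 and 24.6 TPM (log2 difference -0.83 ± 0.20 (SE), adjusted p = 0.00399), with the first control library highest. Flt3 was at 2.28, 1.56 and 1.7 and 4.5, 4.98 and 4.01 TPM (log2 difference 0.95 ± 0.21 (SE), adjusted p = 0.00174). In these 3 receptors and in Csf3r no library overlapped the other genotype, a count not made over all genes. Csf3r was at 47, 39.1 and 40.4 and 23.3, 35.4 and 33.5 TPM (log2 difference -0.46 ± 0.16 (SE), adjusted p = 0.0309), lost without the first control (-0.38, adjusted p = 0.109) or first knockout library (-0.28, adjusted p = 0.202). Csf2rb2 was at 20.4, 20.8 and 21.9 and 20.4, 48.8 and 85.3 TPM and missed the threshold (log2 difference 1.04 ± 0.40 (SE), adjusted p = 0.0552), with the knockout libraries spread widely. Without the first knockout library it passed at 1.57, adjusted p = 0.00381. Kit, at 4.37, 10.6 and 8.83 and 5.44, 13.5 and 16.2 TPM, passed only without that library (0.89, adjusted p = 0.0286).
After scaling Csf2rb2 passed as higher too (1.11, adjusted p = 0.0288). The count of 1 higher and 3 lower, 2 and 3 after scaling, stands beside 32% of all genes, 1095 higher and 2711 lower (2086 higher and 2696 lower after scaling). Macrophage markers were lower with Csf1r, 13 of 13, with sums of 1394 to 1934 and 401 to 598 TPM and Vsig4 and Timd4 at 0 in both. Stem and progenitor markers, beside Flt3, stood at 6 of 12 higher and 1 lower, with sums of 149.8 to 152 and 211 to 253 TPM. Neutrophil markers, beside the lower Csf3r, stood at 1 of 14 higher and 4 lower (1 and 4 after scaling), with sums of 64719 to 163774 and 188486 to 232009 TPM. Eosinophil markers stood at 0 of 7 higher and 6 lower (0 and 6 after scaling), with sums of 1833 to 3012 and 899 to 1407 TPM. The part of these lists was not tested.

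Day 7 of the granulocyte course, with G-CSF alone, had the most receptor calls of the 6 knockout comparisons: 6 higher and 1 lower of 9. This stands beside 44.1% of all genes, 3825 higher and 1425 lower (2600 higher and 2776 lower after scaling, with the receptors again 6 and 1). Csf3r, which binds the cytokine present, was at 73, 76.1 and 82.2 TPM in controls and 145, 220.5 and 187 in knockouts (log2 difference 1.23 ± 0.16 (SE), adjusted p = 5.53e-06, 1.03 after scaling). Csf1r was at 219.7, 236 and 319.7 and 131, 132 and 130.3 TPM (log2 difference -0.96 ± 0.12 (SE), adjusted p = 4.75e-06, -1.16 after scaling). Neither overlapped between genotypes, the knockout Csf1r values lay within 2 TPM of each other, and both calls held in every alternative run. Csf2rb was at 174, 181 and 202 and 289, 643 and 704 TPM (log2 difference 1.45 ± 0.24 (SE), adjusted p = 1.01e-04, 1.24 after scaling). Csf2rb2 was at 20.9, 20.6 and 20.3 and 29.1, 82.8 and 98.1 TPM (log2 difference 1.54 ± 0.40 (SE), adjusted p = 0.00437, 1.35 after scaling). Kit was at 4.46, 4.38 and 6.71 and 10.4, 20.8 and 23.9 TPM (log2 difference 1.59 ± 0.32 (SE), adjusted p = 5.12e-04, 1.42 after scaling). In each of these the first knockout library was the lowest of its group and still above all controls.
Without knockout libraries 2 and 3, the alternative chosen after seeing the data, Csf2rb was 0.64, adjusted p = 0.0984, Csf2rb2 0.48, adjusted p = 0.576 and Kit 0.91, adjusted p = 0.165, and the lone library is then assumed to vary like the other groups. Csf3r (0.91, adjusted p = 0.00642) and Csf1r (-0.96, adjusted p = 0.00155) still passed. Flt3 was at 1.26, 1.2 and 1.75 and 4.5, 3.01 and 2.33 TPM (log2 difference 0.81 ± 0.21 (SE), adjusted p = 0.00458, 0.69 after scaling). Epor was at 0.45, 0.54 and 1.15 and 2.61, 2.66 and 3.25 (log2 difference 1.18 ± 0.21 (SE), adjusted p = 1.74e-04, 1.10 after scaling), both low and without overlap. Csf2ra (0.14, -0.06 after scaling) and Il3ra (0.06, -0.14 after scaling) did not pass and their sign turned with scaling. There was a median log2 difference of 1.18 over the 9 receptors and 0.17 over all genes tested.

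Markers of other cell types moved in the same libraries. Of the mast cell and basophil markers, 9 of 12 tested were higher and none lower (1 lower after scaling), with sums of 1739 to 2285 TPM in controls and 2112 to 6871 in knockouts and no listed marker at 0 in all libraries of either group. The list did not move as 1. Cpa3 read 222 to 339 TPM in controls and 731 to 3157 in knockouts. Mcpt8, known in basophils, read lower in every knockout library, 586 to 788 and 206 to 557 TPM, without passing unscaled. Within the knockout group the marker sum was lowest in the first library. The same library was lowest for Csf2rb, Csf2rb2, Kit, Csf3r, Csf2ra, Il3ra and Epor, and not for Csf1r or Flt3. Kit and the beta chains are also known in mast cells. Stem and progenitor markers stood at 9 of 12 higher and 1 lower, with sums of 154 to 243 and 220.3 to 349.9 TPM, and megakaryocyte markers at 8 of 11 higher and 0 lower, with sums of 326 to 536 and 1282 to 1786. Erythroid markers, beside Epor, stood at 2 of 12 higher and 0 lower, with sums of 97.4 to 116 and 134 to 142 TPM and Slc4a1 and Car1 at 0 in the knockouts. Beside Csf3r, neutrophil markers stood at 2 of 14 higher and 6 lower, with sums of 122792 to 172668 and 153120 to 175066 TPM. Beside Csf1r, macrophage markers stood at 1 of 13 higher and 10 lower, with sums of 2694 to 4745 and 2779.6 to 3310.1 TPM and Vsig4 and Timd4 at 0 in both. The part of these lists in the receptor differences was not tested.

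Whether a change from one day to the next differed between genotypes was tested as a difference of changes. In the macrophage course 2 receptors passed as higher from day 3 to 5 (34.7% of all genes, 650 higher and 3493 lower; 1716 higher and 1364 lower after scaling), Csf1r and Epor. From day 5 to 7, 4 passed as higher (35.6% of all genes, 4096 higher and 165 lower; 503 higher and 420 lower after scaling), Csf2ra, Csf2rb, Csf2rb2 and Csf3r, of which Csf2rb and Csf3r passed after scaling. In the granulocyte course 1 passed from day 3 to 5, Epor, as higher (21.4% of all genes, 663 higher and 1887 lower; 1568 higher and 1502 lower after scaling), and Csf1r passed as higher after scaling (0.62, adjusted p = 0.0253). From day 5 to 7, 4 passed as higher, Csf2ra, Csf2rb, Csf3r and Epor (14.1% of all genes, 1562 higher and 118 lower; 645 higher and 299 lower after scaling), of which Csf3r and Epor passed after scaling. For Csf3r from day 5 to 7 the difference was thus above 0 in both courses. Several of these calls rested on single libraries. Epor in the macrophage course was lost without any 1 of 8 of its 12 libraries (0.69 to 1.01 over all left out in turn). Csf2ra there was lost without any 1 of 10 of its 12 libraries (0.53 to 0.85 over all left out in turn). In the granulocyte course Epor from day 3 to 5 was lost without any 1 of 9 of its 12 libraries (0.74 to 1.03 over all left out in turn). For days 5 to 7 the same held for Csf2ra with 7 of its 12 libraries (0.72 to 1.11 over all left out in turn) and for Csf2rb with 7 of its 12 libraries (0.87 to 1.51 over all left out in turn). Without knockout libraries 2 and 3 of day 7, none of the 4 macrophage calls from day 5 to 7 was kept. Consecutive steps share the libraries of the day between them, and both courses share day 3, so these counts are not independent of each other.

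The effect of the knockout was also compared between the courses. At day 5 no receptor passed (limma; 1 at an unadjusted p under 0.05), beside 0.189% of all genes, 5 higher and 16 lower (21 higher and 21 lower after scaling). Csf1r came closest (0.87, adjusted p = 0.0622) and passed after scaling (1.01, adjusted p = 0.0339); with 1 library left out the number passing was 0 or 1. At day 7, 2 receptors passed, beside 3.26% of all genes: the effect on Csf1r was higher in the macrophage course (1.18, adjusted p = 0.0148) and the effect on Kit lower there (-1.82, adjusted p = 0.0317). The Csf1r call was lost without any 1 of 2 of its 12 libraries (1.02 to 1.33 over all left out in turn), the second control and the second knockout library of the macrophage course. The Kit call was lost without any 1 of 9 of its 12 libraries (-2.16 to -1.60 over all left out in turn). Csf1r in the macrophage course was at 178, 186 and 249 TPM in controls and 225, 249.7 and 234 in knockouts. These groups overlap and did not pass between genotypes. In the granulocyte course Csf1r passed as lower in the knockout, without overlap. Kit in the macrophage course was at 4.15, 4.26 and 7.08 TPM in controls and 3.67, 4.1 and 4.77 in knockouts, groups that overlap, against the non-overlapping groups of the granulocyte course. For the other receptors the difference of effects did not pass; for Csf2rb it was 0.34 ± 0.54 (SE) and for Csf3r -0.71 ± 0.31.

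Of the 9 ligand genes of these receptors, 4 were high enough to test, since Il3, Il5, Il34, Csf3 and Epo were at or near 0 TPM. Csf1, which encodes M-CSF, passed as higher in the knockout at day 7 of both courses. It was from 11 to 55 TPM for control and knockout in the macrophage course (log2 difference 2.21 ± 0.31, adjusted p = 1.67e-05). It was from 29.3 to 147 TPM in the granulocyte course (2.15 ± 0.30, adjusted p = 1.17e-05). Its knockout libraries ranged from 27.3 to 72.7 and 61.7 to 194 TPM. Flt3l, the gene of FLT3 ligand, was lower at day 3 (-0.61) and higher at day 7 of the granulocyte course (0.64), and Kitl, the gene of SCF, lower at day 7 of the macrophage course (-0.48). Among 16 tested receptors of related families, 11 passed as lower and none as higher at day 3 (14 and none after scaling), beside 53.2% of all genes, 26.5% higher and 26.7% lower. Among those of smallest p were Il6st, the signal chain of the IL-6 family (-1.46) and Il7r (-2.10), with a list median of -0.78. The list stood at 3 of 16 higher and 2 lower at day 0. It stood at 1 of 16 higher and 4 lower (3 and 3 after scaling) and 5 of 16 higher and 0 lower (3 and 2 after scaling) at days 5 and 7 of the macrophage course. In the granulocyte course it stood at 2 of 16 higher and 6 lower and 6 of 16 higher and 3 lower, where scaling turned the last to 3 higher and 6 lower.

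The 11 Janus kinase and STAT genes stood at 2 of 11 higher and 0 lower (1 and 1 after scaling) at day 0. They stood at 1 of 11 higher and 1 lower (1 and 6 after scaling) at day 3 (Stat4 -1.60). At day 5 the counts were 0 of 11 higher and 3 lower (3 and 2 after scaling) in the macrophage course and 2 of 11 higher and 2 lower (3 and 2 after scaling) in the granulocyte course. At day 7 they stood at 5 of 11 higher and 2 lower in the macrophage course (2 and 3 after scaling) and 6 of 11 higher and 2 lower (5 and 2 after scaling) in the granulocyte course. Named there were Stat5b (0.63), Jak2 (1.31), the kinase bound by the beta chain, and Stat5a (0.72). Of 20 STAT targets and feedback genes, 13 passed as higher and 2 as lower at day 7 of the granulocyte course (12 and 3 after scaling), with a median of 0.85. This stands beside 44.1% of all genes, 32.1% higher and 12% lower, with a median of 0.17. Cish, a feedback inhibitor of STAT5 signalling, went from 1.91 to 18.4 TPM (2.69 ± 0.19, adjusted p = 1.70e-09), Ccnd2, a G1 cyclin, from 3.19 to 14.9 TPM (1.90), and Socs3, which restrains G-CSF receptor signalling, from 41.5 to 129.8 TPM (1.60). In other stages the list stood at 3 of 20 higher and 0 lower (day 0) and 2 of 20 higher and 8 lower (day 3, with Bcl6 -1.02 and Pim1 -1.09). Days 5 and 7 of the macrophage course gave 1 of 20 higher and 4 lower and 7 of 20 higher and 2 lower (Id1 1.61, Socs1 1.07 and Socs2 1.80 at day 7). Day 5 of the granulocyte course gave 5 of 20 higher and 3 lower (Bcl6, lower from 6.9 to 2.97 TPM, Myc 0.79 and Cish 1.18). At day 5 of the macrophage course scaling turned the balance to 8 higher and 3 lower.

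Of 38 adaptors, kinases and phosphatases that act on the receptors, more passed as lower than as higher at day 3 (4 of 38 higher and 17 lower), day 5 of the macrophage course (0 of 38 higher and 21 lower) and of the granulocyte course (1 of 38 higher and 14 lower), also after scaling. Of all genes, 26.5% passed as higher and 26.7% as lower at day 3. At day 5 all genes leaned to lower too, 37.9% against 5.11% higher (macrophage) and 22.8% against 9.2% (granulocyte). After scaling all genes split 2809 higher and 4280 lower, 2034 and 2548, and 2086 and 2696 at these 3 stages. At day 7 this list stood at 7 of 38 higher and 7 lower (2 and 11 after scaling) in the macrophage course and 8 of 38 higher and 3 lower in the granulocyte course (4 and 12 after scaling), and at 4 of 38 higher and 5 lower at day 0. Beside it, 27.4% of all genes passed as higher and 12.5% as lower at day 7 of the macrophage course. The shares were 32.1% and 12% at day 7 of the granulocyte course and 13.1% and 10.2% at day 0. The shares of each stage also stand beside the unscaled counts of the other lists. Fer, a tyrosine kinase, was lower at day 3 (-0.92). Of 28 transcription factors known at such receptor genes, none passed as higher and 11 as lower at day 3 (none and 12 after scaling), beside 53.2% of all genes, 26.5% higher and 26.7% lower. At day 7, 14 passed as higher and 5 as lower in the granulocyte course, with a scaled count of 11 and 6 and Meis1 (2.10), Egr2 (1.65) and Gata2 (1.76) first. The other stages gave 3 of 28 higher and 3 lower (2 and 4 after scaling) (day 0, Spi1, which encodes PU.1, 0.52). At days 5 and 7 of the macrophage course they were 3 of 28 higher and 11 lower (4 and 4 after scaling) and 8 of 28 higher and 3 lower (5 and 6 after scaling), and at day 5 of the granulocyte course 5 of 28 higher and 5 lower (7 and 4 after scaling). Meis1, known in stem and progenitor cells, was among the first named at days 5 and 7 of both courses (0.99, 1.14, 1.29 and 2.10).

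The receptors' patterns over the 12 group means were compared as a description; the points share libraries of the same course and day, and no p is given. Csf2rb and Csf2rb2 were the most alike (Pearson r of mean log2(TPM + 1) 0.98), a pair whose reads can be hard to assign, followed by Kit with Epor (0.96) and with Flt3 (0.90). Of 9997 other genes whose highest group mean was at least 5 TPM, those most like each receptor by r were Icam4 (0.97), Stat5a (0.97), Nwd1 (0.96) for Kit, Rfx5 (0.99), Sox4 (0.99), Itpr1 (0.98) for Flt3 and Tie1 (0.96), Tap2 (0.96), Inafm1 (0.95) for Epor. For the beta chains they were 1110008P14Rik (0.97), Arg2 (0.96), Slc31a2 (0.95) for Csf2rb and Kctd11 (0.96), Arg2 (0.95), Slc25a20 (0.95) for Csf2rb2, so that Arg2, an arginase, was in both lists. For the alpha chains they were March1 (0.97), Klf3 (0.96), Pqlc1 (0.96) for Csf2ra and Maf1 (0.93), Serinc5 (0.91), Use1 (0.89) for Il3ra. For Csf1r they were Pdgfb (0.98), Glul (0.96), Map4k3 (0.96) and for Csf3r Hrh2 (0.91), Steap4 (0.91), Stat3 (0.90). By Spearman's rho the gene ranked first was the same as one of these 3 for Csf2ra (Klf3), Csf3r (Stat3), Il3ra (Serinc5) and Flt3 (Itpr1), and for the others it was not.

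In the controls the pathway lists were also compared between the courses. At day 5, where few genes passed, the related receptors stood at 0 of 16 higher and 1 lower (0 and 1 after scaling), the Janus kinases and STATs at 0 of 11 higher and 1 lower (0 and 1 after scaling) and the STAT targets at 3 of 20 higher and 2 lower (3 and 2 after scaling), higher meaning higher in the macrophage course. At day 7 the same lists stood at 1 of 15 higher and 4 lower (1 and 10 after scaling), 0 of 11 higher and 4 lower (0 and 7 after scaling) and 5 of 20 higher and 6 lower (3 and 10 after scaling). The adaptors, kinases and phosphatases stood at 2 of 38 higher and 13 lower (2 and 20 after scaling) and the transcription factors at 5 of 26 higher and 12 lower (1 and 13 after scaling). Of all genes, 1.17% passed as higher and 2.27% as lower at day 5 (173 higher and 254 lower after scaling). At day 7 the shares were 36.3% and 10.3% (2133 higher and 2277 lower after scaling).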

How the data were processed

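RNA-seq of cultured mouse HSPCs was analysed from 2 tables of TPM values (each gene's length-normalised share of a library's transcripts), which the authors deposited, 1 per course; the 12 columns of days 0 and 3 are the same in both. The submitters' processing notes name RSEM (version not given), DESeq2 1.38.3 and mm10, and per the labels' protocols total RNA was made into libraries with a stranded KAPA kit. TPM keeps no read depth, so the depth is unknown and no counting error is given.

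Differences were tested with limma 3.58.1 (R 4.3.3) on log2(TPM + 1), with a mean-variance trend, 1 coefficient per group, genes at 1 TPM or more in at least 3 libraries and Benjamini-Hochberg adjustment over all genes, threshold 0.05. The 24 libraries of a course were fitted together (days 0 and 3 in the macrophage fit), and the 12 of a day for comparisons between courses, 20 comparisons in all. A log2 difference on this scale understates the change of low genes. Each fit was tested on simulated data. Tried besides were a pseudocount of 0.1 or 5 TPM, dropping the filter or raising it to 5 TPM, median-of-ratios scaling, fits of only the groups compared or of all 36 libraries, the replicate number as a block, and each library left out.

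The receptors and gene lists were chosen with earlier results of these data known. Named are the 9 receptors, Taf1, up to 3 genes of a pathway list per comparison by smallest p at 5 TPM or more, and the 3 genes most like each receptor; a few genes that this rule names are not reported here. Replicate numbers were taken to pair libraries where same-numbered deviations correlated over 0.1 in every pair: this held between genotypes at day 5 of the macrophage course (0.182 to 0.3) and between courses in all 4 pairs of groups. Between courses, differently numbered control libraries reached 0.614 (day 5) and 0.43 (day 7), above the lowest same-numbered values of 0.464 and 0.231. In knockouts the values were 0.288 against 0.302 at day 5 and 0.348 against 0.271 at day 7. The main tests left this pairing out. Promoter windows are RefSeq's on GRCm38.p6; coding sequences were aligned with Biopython 1.88.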

Additional observations from a re-analysis of the deposited data

Results flagged for a closer look

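Changes between days, or effects of the knockout, that differed between groups by a test of the difference itself were as follows, as differences on the log2(TPM + 1) scale (SE; limma, adjusted p). The Csf1r change from day 0 to day 3 was lower in the knockout by a difference of -1.64 ± 0.16 (adjusted p = 6.71e-07), and the change from day 3 to day 5 of the macrophage course was higher by 1.33 ± 0.16 (adjusted p = 1.12e-05). Both comparisons use the same day 3 libraries. The Epor change from day 3 to 5 was higher in the knockout by 0.83 ± 0.30 (adjusted p = 0.0391) in the macrophage course and by 0.85 ± 0.30 (adjusted p = 0.0461) in the granulocyte course, with day 3 shared. After scaling these 3 day 3 to 5 values were 1.66 for Csf1r and 0.97 and 0.95 for Epor, with adjusted p of 7.32e-06, 0.0254 and 0.017. At 0.97 to 1.38 TPM the knockout libraries of day 3 were close to the pseudocount of 1.

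From day 5 to 7 of the macrophage course the knockout change was higher for Csf2ra by 0.69 ± 0.26 (adjusted p = 0.0455), for Csf2rb by 1.60 ± 0.36 (adjusted p = 0.00371), for Csf2rb2 by 1.45 ± 0.42 (adjusted p = 0.0140) and for Csf3r by 1.49 ± 0.28 (adjusted p = 0.00142). After scaling these were 0.31, 1.20, 1.07 and 1.12, with adjusted p of 0.543, 0.0340, 0.108 and 0.0250. In the granulocyte course it was higher for Csf2ra by 0.96 ± 0.29 (adjusted p = 0.0315), for Csf2rb by 1.10 ± 0.35 (adjusted p = 0.0380), for Csf3r by 1.69 ± 0.22 (adjusted p = 6.36e-05) and for Epor by 1.44 ± 0.30 (adjusted p = 0.00340). After scaling these were 0.69, 0.83, 1.41 and 1.31, with adjusted p of 0.143, 0.0959, 2.65e-04 and 0.00568.

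At day 7 the knockout effect in the macrophage course less that in the granulocyte course was 1.18 ± 0.21 for Csf1r (adjusted p = 0.0148) and -1.82 ± 0.39 for Kit (adjusted p = 0.0317). Groups of 3 libraries are too small for the test of single outlying samples.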

How the results depend on the processing

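Of 67 receptor results that passed in the 20 comparisons, 42 passed under every alternative named in the methods and with each library left out, 23 were lost under at least 1 of those alternatives, 22 without at least 1 library, and 0 turned direction. Dropping the low filter lost 16 and scaling 9. The replicate block lost 0. Among the 27 knockout against control results that had not passed, it added 1, Csf2rb2 at day 5 of the granulocyte course (1.04, adjusted p = 0.0275). Same-numbered deviations there correlated at 0.0621 to 0.297 between genotypes. They were not over 0.1 in every pair, so pairing by number was not taken to hold. Gains in the other comparisons were not counted.

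The number of receptors passing changed by over 1.5 times as follows. For the knockout at day 5 of the macrophage course 5 became 3 with a pseudocount of 5, fitting only the groups compared or all 36 libraries, and 2 without the filter or with scaling. Without day 7 knockout libraries 2 and 3, chosen after seeing the data, 4 became 1 (macrophage) and 7 became 4 (granulocyte). Of the genotype differences in change, day 0 to 3 had 1, and 3 fitting only its groups. Macrophage days 3 to 5 had 2, and 1 with a pseudocount of 0.1 or no filter, and days 5 to 7 had 4, 2 with scaling and 0 without those day 7 libraries. Granulocyte days 3 to 5 had 1, 0 with either pseudocount or no filter and 2 with scaling, and days 5 to 7 had 4, 2 with no filter, scaling or only its groups, and 1 without those libraries. Between control courses 2 at day 5 became 1 with no filter or only its groups, and 2 at day 7 became 1 with no filter and 5 with scaling. The lineage difference of the knockout effect was 0 at day 5, 1 with scaling or all 36 libraries, and 2 at day 7, 0 with no filter or without those libraries. The causes were not tested.

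With each library left out in turn, the numbers passing for the knockout ranged from 0 to 3 at day 0, 3 to 5 at day 3, 3 to 4 and 2 to 4 at days 5 and 7 of the macrophage course, and 3 to 5 and 7 to 7 of the granulocyte course. For control changes they were 7 to 7, 5 to 6, 2 to 3, 3 to 4 and 3 to 4 in the order of the report. For genotype differences in change they were 1 to 2, 1 to 3, 3 to 4, 0 to 3 and 2 to 5, for the control courses 1 to 4 and 1 to 2, and for the lineage differences 0 to 1 and 0 to 3.

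Knockout against control values that had not passed and turned sign were, with scaling, Csf2rb2 at day 5 (0.069) and Csf2ra at day 7 (-0.14) of the macrophage course, and Csf2ra (-0.062) and Il3ra (-0.14) at day 7 of the granulocyte course. Without day 7 knockout libraries 2 and 3 they were Csf2ra (-0.29) in the macrophage course and Csf2ra (-0.15) and Il3ra (-0.34) in the granulocyte course. With 1 library left out, those whose range crossed 0 were Kit at day 0 (-0.16 to 0.023), Flt3 at day 0 (-0.31 to 0.055), Csf2rb2 at day 5 of the macrophage course (-0.32 to 0.16), Csf2ra at day 7 of the macrophage course (-0.088 to 0.17), Il3ra at day 5 of the granulocyte course (-0.43 to 0.11) and Il3ra at day 7 of the granulocyte course (-0.10 to 0.26). TPM keeps no depth, so what depth limits cannot be given.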
